A study of Mus musculus with 9 samples.

Results

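The miR-148 and miR-152 family of the mouse comprises 3 hairpin genes, Mir148a, Mir148b and Mir152, whose 3p products are near copies of each other. The 5 members described here are mmu-miR-148a-3p, mmu-miR-148a-5p, mmu-miR-148b-3p, mmu-miR-148b-5p and mmu-miR-152-3p (mmu marks the mouse and is left out from here on), chosen by name from the 1915 mature miRNA names in a count table of known miRNAs. Each of the 5 had 1 row in that table, no other name carried the same counts as a member in every library, and all 5 passed the filter on low counts that left 312 names for testing. The 5p product of mir-152 is no member and is given beside them as the other arm of that hairpin.

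Small RNA was sequenced from milk fat of 9 outbred ICR (CD1) mouse dams in their first lactation, 1 library per dam. The 5 control dams ate a diet with 10% of its energy from fat (3.85 kcal/g), and the 4 high-fat dams one with 60% (5.24 kcal/g). Both diets had 7% of their energy as sucrose and were fed from 4 weeks of age, for 4 weeks before mating and then through pregnancy and lactation. Milk was taken on lactation day 10, and the fat layer was washed with buffered saline before RNA was extracted. Before mating the dams were housed in pairs of the same diet, so dams of a diet may have shared a cage, but which did is not given. The labels name no batch and no sequencing date.

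A miRNA hairpin is cut into a duplex of a 5p and a 3p strand. One strand is usually kept in an Argonaute protein, where bases 2 to 8 from its 5′ end, the seed, pair with messenger RNAs and lower their translation and stability, and the other strand is mostly degraded. The 3p strands of miR-148a, miR-148b and miR-152 share a seed and so are predicted to bind many of the same messenger RNAs, among them that of the DNA methyltransferase Dnmt1, a known target. miR-148a-3p is known as one of the most abundant miRNAs of mammalian milk, where fat globules carry cytoplasm of the secretory epithelial cell.

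The mature sequences are shown because the family is defined by them. They are RefSeq sequences on GRCm38.p6, written 5′ to 3′, with the seed in capitals.
miR-148a-3p: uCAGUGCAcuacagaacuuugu
miR-148b-3p: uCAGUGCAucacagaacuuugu
miR-152-3p: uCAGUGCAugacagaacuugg
miR-148a-5p: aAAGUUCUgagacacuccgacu
miR-148b-5p: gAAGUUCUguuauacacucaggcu
miR-152-5p: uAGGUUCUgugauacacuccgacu

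The 3p strands differed only after the seed. Counted from 1 at the 5′ end of miR-148a-3p, miR-148b-3p carried C9U and U10C, and miR-152-3p carried C9U, U10G and U20G and was 1 base shorter, at 21 against 22 bases. The 5p strands were less alike: miR-148a-5p and miR-148b-5p had the same seed but differed at 9 of the first 22 positions, and the seed of miR-152-5p was different again. Among 1679 mature mouse sequences, the seed CAGUGCA occurred at bases 2 to 8 in 3, which were the 3p members, and AAGUUCU in 2, which were the 5p members. The letters CAGUGCA also open 7 other mature sequences at bases 1 to 7, among them miR-130a-3p and miR-130b-3p of the miR-130/301 family, whose register is shifted by 1 base.
miR-130a-3p: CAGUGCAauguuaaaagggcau
miR-130b-3p: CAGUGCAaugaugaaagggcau

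The hairpins show how the strands pair and where each gene lies, with the mature strands in capitals, 5p first.
Mir148a: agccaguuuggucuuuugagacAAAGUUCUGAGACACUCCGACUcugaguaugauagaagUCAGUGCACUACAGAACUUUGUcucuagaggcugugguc
Mir148b: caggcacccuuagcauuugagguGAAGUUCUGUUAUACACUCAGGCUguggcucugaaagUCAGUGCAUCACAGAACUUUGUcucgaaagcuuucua
Mir152: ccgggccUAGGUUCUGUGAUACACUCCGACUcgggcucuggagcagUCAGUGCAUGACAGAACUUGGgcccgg

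Mir148a (chr6:51269812-51269910, minus strand, 99 bases) lies between genes. The nearest protein-coding gene in GRCm38 toward higher coordinates is Nfe2l3, 162760 bases away, and toward lower coordinates Npvf, 615373 bases away. Mir148b (chr15:103285125-103285221, plus strand, 97 bases) lies in an intron of Copz1, and Mir152 (chr11:96850393-96850465, plus strand, 73 bases) in an intron of Copz2, both on the strand of the host gene. Copz1 and Copz2 are paralogues that encode zeta subunits of the coatomer, the coat of vesicles that move between the Golgi and the endoplasmic reticulum. The longest stretch of Watson-Crick pairing between the 5p and 3p strands was 9 bases in Mir148a, 9 in Mir148b and 7 in Mir152. It covered bases 1 to 9 of miR-148a-5p, bases 2 to 10 of miR-148b-5p and bases 4 to 10 of miR-152-5p, so in all 3 hairpins it took in most of the 5p seed and bases past the 3p seed.

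Library totals ran from 837817 counts in control dam 5 to 3897109 in high-fat dam 2, with a median of 1905838. A count of 0 would allow a share of up to 0.000358% in the shallowest library and 7.70e-05% in the deepest, and each member was counted in all 9. Markers of other cell types were measured alongside. The 5 leukocyte miRNAs (miR-223-3p, both miR-142a arms, miR-150-5p and miR-155-5p) summed to 0.0356% to 0.0762% of counts in the control dams, and in the high-fat dams to 1.14% in dam 1, 0.00777% in dam 2, 0.287% in dam 3 and 0.0251% in dam 4. High-fat dams 1 and 3 thus lay above every control dam and dams 2 and 4 below every one, so the levels and the ratio of the 5p strands are also given without dams 1 and 3. The 4 stromal miRNAs summed to 1.04% to 1.92% in control and 1.17% to 2.57% in high-fat dams, the 4 red cell miRNAs to at most 0.0650% in any dam, the 3 striated muscle miRNAs to at most 0.00910%, with miR-206-3p at 0 in every library, and the liver miRNA miR-122-5p to at most 0.00926%. Most of the stromal sum was miR-143-3p alone, and 3 of the 4 stromal names passed the filter on low counts. The 5 epithelial miRNAs of the miR-200 family held 9.57% ± 0.854 (SD, n = 5) of counts in the control and 9.81% ± 0.240 (SD, n = 4) in the high-fat dams.

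The family held 13.5% ± 1.91 (SD, n = 5) of all mature miRNA counts in control milk fat and 14.4% ± 0.868 (SD, n = 4) in high-fat milk fat. Nearly all of it was miR-148a-3p, the second most abundant miRNA in each of the 9 libraries, behind miR-146b-5p. The other 4 members were present at levels far apart, in the same order in both diets: miR-152-3p, miR-148b-3p, miR-148a-5p and miR-148b-5p. The ranges of neighbouring members in that order did not overlap over the 9 libraries.

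miR-148a-3p, the guide strand of Mir148a, made up 12.9%, 15.8%, 13.1%, 12.4% and 10.3% of counts in control dams 1 to 5 and 12.8%, 13.8%, 13.8% and 14.95% in high-fat dams 1 to 4. Control dam 2 held the highest share and control dam 5 the lowest, and all 4 high-fat dams lay between them. The mean was 12.9% ± 1.97 (SD, n = 5) in control and 13.8% ± 0.885 (SD, n = 4) in high-fat milk. Counting error was small beside this: the 95% Wilson interval in the shallowest library, that of control dam 5, was 10.2% to 10.4%.

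miR-152-3p, the guide strand of Mir152, was next, at 0.363%, 0.354%, 0.385%, 0.262% and 0.487% in control dams 1 to 5 and 0.393%, 0.411%, 0.371% and 0.335% in high-fat dams 1 to 4. The high-fat values lay inside the control range, which control dams 4 and 5 set. It ranked 33 to 42 by abundance in control and 35 to 37 in high-fat libraries. miR-148b-3p, the guide strand of Mir148b, made up 0.179%, 0.118%, 0.157%, 0.149% and 0.162% in control dams 1 to 5 and 0.191%, 0.189%, 0.134% and 0.195% in high-fat dams 1 to 4. High-fat dams 1, 2 and 4 were above every control dam, and high-fat dam 3 was below all control dams but dam 2. Its rank ran from 43 to 57 over all 9 libraries.

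miR-148a-5p, the passenger strand of Mir148a, made up 0.0594%, 0.0527%, 0.0534%, 0.0638% and 0.0549% in control dams 1 to 5 and 0.0490%, 0.0366%, 0.0414% and 0.0527% in high-fat dams 1 to 4. All 4 high-fat dams lay below all control dams on this scale, but high-fat dam 4 was less than its counting error below control dam 2, with 95% Wilson intervals of 0.0495% to 0.0560% and 0.0488% to 0.0569%. The rank was 71 to 81 in control and 77 to 94 in high-fat libraries. miR-148b-5p, the passenger strand of Mir148b, was counted 41, 27, 40, 47 and 15 times in control dams 1 to 5 and 54, 98, 70 and 90 times in high-fat dams 1 to 4, a mean share of 0.00216% ± 0.000573 (SD, n = 5) and 0.00325% ± 0.00110 (SD, n = 4). With counts this low, counting error alone has a log2 SD of 0.27 in control and 0.17 in high-fat libraries, against observed SDs between dams of 0.40 and 0.52.

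**Figure D1:**
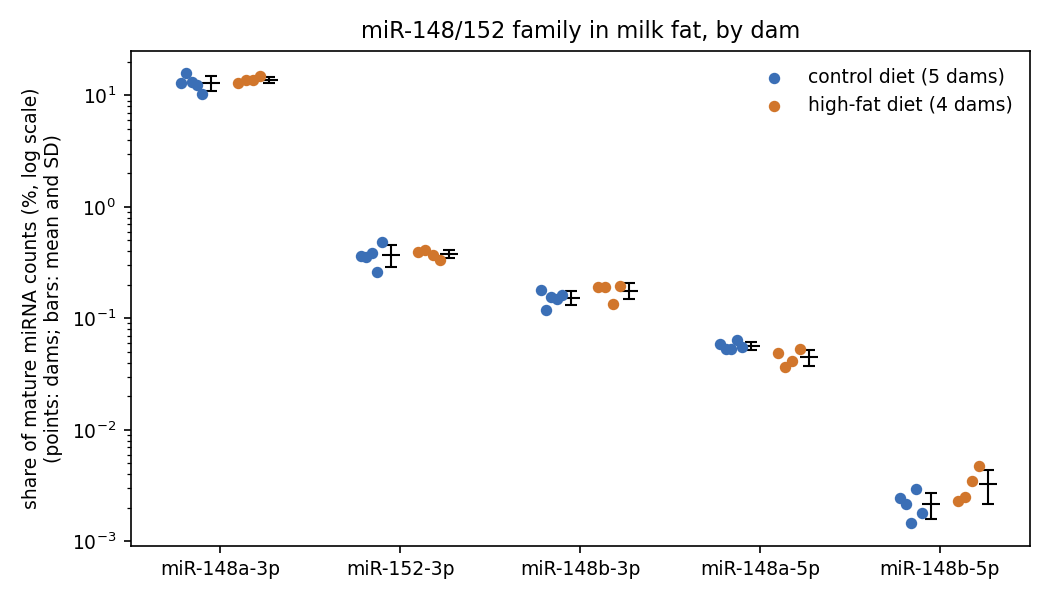
Share of all mature miRNA counts (%, log axis) taken by each family member. Each point is 1 dam, blue for the 5 control and orange for the 4 high-fat dams, and bars give the mean and SD. The members separate into 5 levels from about 13% for miR-148a-3p to under 0.005% for miR-148b-5p. Control and high-fat points overlap in all but miR-148a-5p. Its 4 high-fat points lie below the 5 control points, the highest of them by less than its counting error.

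The first question the design poses is whether the diet changed the level of any member. No member passed the test: limma-voom, fitted over all 312 tested names with Benjamini-Hochberg adjustment, called 0 of the 5, and percent called over all names was 0%. At an unadjusted p below 0.05 it listed 32 of the 312 names, 1 of them a member, and the smallest adjusted p over all names was 0.0996. Of the 5 members, 4 had a log2 fold change above 0, beside 158 of the 312 tested names. The median over the members was 0.11, beside a median of 0.00 over all tested names. On the CPM scale (counts divided by the library total, with the totals scaled by trimmed mean of M values factors), none of the 5 members had groups that did not overlap, against 4.81% of tested names in either direction. In shares of the library total, 1 of the 5 did (miR-148a-5p), against 4.17% of tested names, and on the CPM scale its high-fat dam 4, at 545 CPM, lay among the control dams.

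miR-148a-3p averaged 128999 CPM ± 20833 (SD, n = 5) in control and 138858 CPM ± 15391 (SD, n = 4) in high-fat milk. The limma-voom log2 fold change, high-fat over control, was 0.11 ± 0.13 (SE) with a 95% interval of −0.19 to 0.40 and an adjusted p of 0.765. The interval allows a change of that size in either direction, and the difference was smaller than the spread between dams. Single dams moved the estimate from 0.01 without high-fat dam 4, 0.03 without high-fat dam 2 and 0.03 without control dam 5 to 0.19 without control dam 2 and 0.20 without high-fat dam 1, and it was 0.22 without high-fat dams 1 and 3. For miR-152-3p the log2 fold change was 0.06 ± 0.17 (SE), with an interval of −0.31 to 0.43 and an adjusted p of 0.885 in limma-voom. It ran from −0.06 without high-fat dam 2 and −0.05 without control dam 4 to 0.15 without control dam 5, and was 0.09 without high-fat dams 1 and 3. For miR-148b-3p it was 0.21 ± 0.16 (SE), with an interval of −0.14 to 0.57 and an adjusted p of 0.650, and 3 of 4 high-fat dams were above all control dams in CPM. It was 0.10 without high-fat dam 2, 0.11 without high-fat dam 4, 0.13 without control dam 2 and 0.33 without high-fat dam 3, and 0.39 without high-fat dams 1 and 3, with an adjusted p of 0.339 in limma-voom.

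The passenger strands had log2 fold changes of opposite sign. miR-148a-5p averaged 568 CPM ± 49.0 (SD, n = 5) in control and 449 CPM ± 70.9 (SD, n = 4) in high-fat milk, a limma-voom log2 fold change of −0.35 ± 0.15 (SE). Its 95% interval of −0.68 to −0.03 excluded 0 and its unadjusted p was 0.0352, but the adjusted p was 0.436, and 3 of 4 high-fat dams were below all control dams in CPM. Without high-fat dams 1 and 3 the log2 fold change was −0.32. miR-148b-5p averaged 21.6 CPM ± 5.90 (SD, n = 5) in control and 32.8 CPM ± 12.2 (SD, n = 4) in high-fat milk, a limma-voom log2 fold change of 0.53 ± 0.33 (SE) with an interval of −0.19 to 1.25 and an adjusted p of 0.650. High-fat dams 3 and 4 were above all control dams, and high-fat dams 1 and 2 were among them. The estimate was 0.32 without high-fat dam 4, 0.35 without control dam 3 and 0.71 without high-fat dam 1, and 0.70 without high-fat dams 1 and 3.

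**Figure D2:**
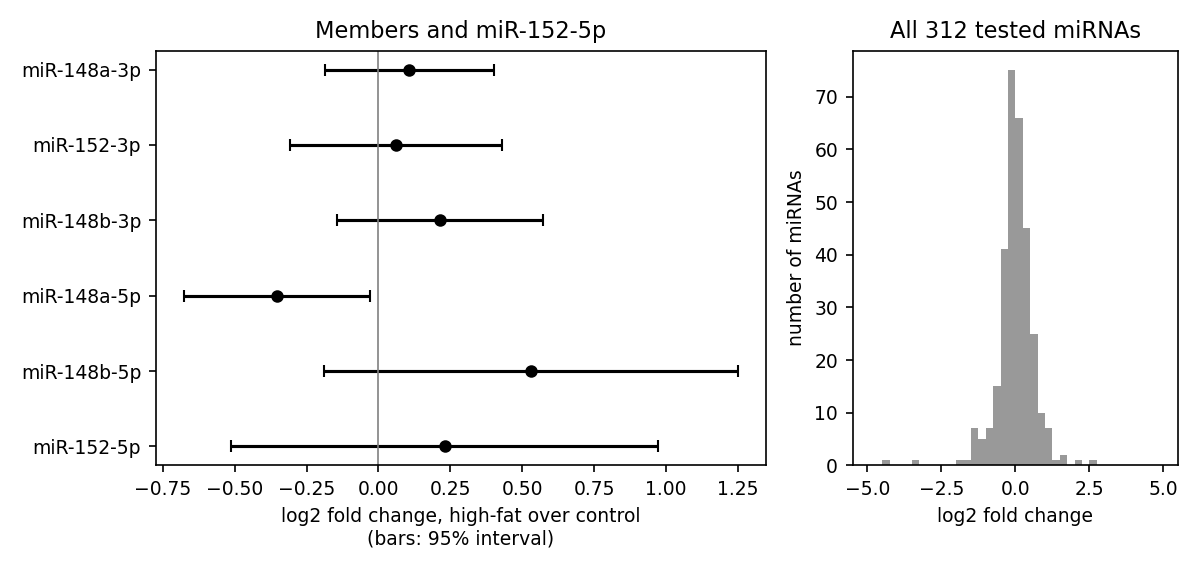
Left, limma-voom log2 fold change (high-fat over control) of each member and of miR-152-5p, with bars for the 95% interval. Right, number of tested miRNAs by log2 fold change in bins of 0.25. Intervals of miR-148a-3p, miR-152-3p, miR-148b-3p, miR-148b-5p and miR-152-5p cross 0, that of miR-148a-5p ends at −0.03, and all 6 estimates lie in the central mass of the histogram.

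A second question is how each hairpin divides its output between the strands. The 3p strand dominated all 3 hairpins in each library. For mir-148a the 5p strand was 0.459%, 0.332%, 0.408%, 0.511% and 0.531% of the counts of both strands in control dams 1 to 5 and 0.381%, 0.264%, 0.30% and 0.351% in high-fat dams 1 to 4. High-fat dams 2 and 3 lay below all control dams, while dams 1 and 4 lay above control dam 2. In 3p counts per 5p count this was 229 ± 45.5 (SD, n = 5) in control and 314 ± 52.0 (SD, n = 4) in high-fat milk.

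For mir-148b the 5p share was several-fold higher, at 1.34%, 1.81%, 0.918%, 1.93% and 1.09% in control dams 1 to 5 and 1.19%, 1.31%, 2.52% and 2.36% in high-fat dams 1 to 4. High-fat dams 3 and 4 lay above all control dams and dams 1 and 2 among them. mir-152 resembled mir-148a: miR-152-5p made up 0.359%, 0.475%, 0.367%, 0.310% and 0.705% in control dams 1 to 5 and 0.466%, 0.361%, 0.411% and 0.577% in high-fat dams 1 to 4, with control dam 5 the highest. These shares rest on 13 to 58 counts of miR-152-5p and 15 to 98 of miR-148b-5p per library, and in control dam 4 the Wilson interval of the mir-152 share ran from 0.181% to 0.529%. In 9 of 9 libraries the 5p share of mir-148b was higher than that of mir-148a and that of mir-152, while the shares of mir-148a and mir-152 overlapped.

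Set against the 101 hairpins with both strands tested, all 3 lay toward the 3p end. A lower mean log2 ratio of 5p to 3p counts was found for 6.93% of hairpins in the case of mir-148a, 8.91% for mir-152 and 12.9% for mir-148b. By diet, limma on the log2 ratio of 5p to 3p (0.5 added to each count) called none of the 3, and percent called over the 101 hairpins was 0%, as was the percent of hairpins whose groups did not overlap. At an unadjusted p below 0.05 it listed 7 hairpins, and the smallest adjusted p was 0.536. The difference, high-fat minus control, was −0.46 ± 0.24 (SE) for mir-148a, with an interval of −0.998 to 0.07 and an adjusted p of 0.541 by limma. It was 0.35 ± 0.34 (SE) for mir-148b and 0.06 ± 0.29 (SE) for mir-152, with adjusted p of 0.743 and 0.999 in limma. The mir-148b difference was 0.17 without high-fat dam 3, 0.20 without high-fat dam 4, 0.20 without control dam 3 and 0.53 without high-fat dam 1. The level of miR-152-5p itself was 17.3 CPM ± 10.1 (SD, n = 5) in control and 17.0 CPM ± 2.16 (SD, n = 4) in high-fat milk, and its limma-voom log2 fold change of 0.23 ± 0.34 (SE, adjusted p = 0.812) differed in sign from the difference of these means, control dam 5 being high at 34.5 CPM.

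**Figure D3:**
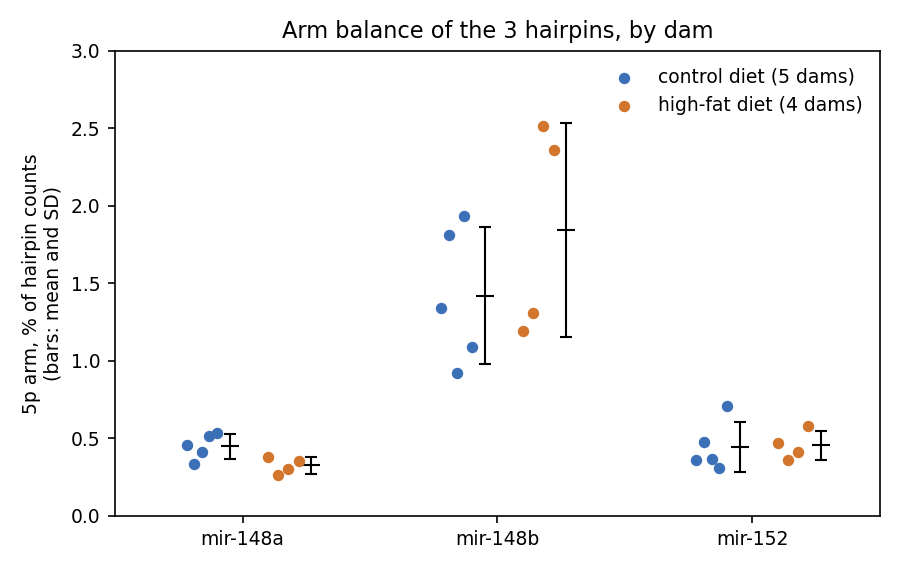
Counts of the 5p strand as a percentage of 5p plus 3p counts for each hairpin. Each point is 1 dam, blue control and orange high-fat, and bars give the mean and SD. mir-148b sits between 0.918% and 2.52% and above the other hairpins, which stay below 0.71%, and the diets overlap in all 3.

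The third comparison is between members with the same seed, which is where a change in balance within the family would appear. Among the 3p strands, miR-148a-3p made up 96.0% ± 1.18 (SD, n = 5) of counts in control and 96.1% ± 0.461 (SD, n = 4) in high-fat milk. miR-152-3p made up 2.84% ± 0.963 and 2.64% ± 0.347, and miR-148b-3p 1.17% ± 0.285 and 1.24% ± 0.210, over the same dams. There were 87.2 ± 27.5 (SD, n = 5) miR-148a-3p counts per miR-148b-3p count in control and 79.8 ± 15.7 (SD, n = 4) in high-fat milk. Per miR-152-3p count there were 36.5 ± 10.4 (SD, n = 5) and 37.0 ± 5.47 (SD, n = 4), and miR-152-3p outnumbered miR-148b-3p by 2.45 ± 0.564 (SD, n = 5) and 2.18 ± 0.440 (SD, n = 4) to 1. The rule for counting reads that fit several of these near copies was not given. Whether miR-148a-3p reads entered the counts of the rarer 3p strands was not tested.

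How far 1 name leads differed widely between seed families, and the values are given as a description. Over the 9 libraries miR-148a-3p made up 94.1% to 97.1% of its 3 3p strands. let-7i-5p, the leading let-7 name, made up 17.1% to 29.6% of 9 names, miR-30a-5p 54.0% to 64.9% of 5 miR-30 names, and miR-200b-3p 47.9% to 57.5% of miR-200b, miR-200c and miR-429. Other groups of tested names with a shared seed were led about as strongly as the miR-148a-3p group, or more so. miR-146b-5p, in the group with the largest share of counts, made up 99.6% to 99.9% of 2 names, miR-29a-3p 97.3% to 98.6% of 3 and miR-10a-5p 89.9% to 99.6% of 2. The let-7 family as a whole, at 11.5% ± 1.08 (SD, n = 9) of counts, and the miR-30 family, at 11.1% ± 0.940 (SD, n = 9), took shares nearly as large as the 13.8% ± 1.54 (SD, n = 9) of the 3 family 3p strands.

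By diet, limma on log2 ratios over the 122 pairs of tested names with the same seed called 0, so percent called was 0%. It listed 16 pairs at an unadjusted p below 0.05, with a smallest adjusted p of 0.204. Among the 3p strands, the log2 ratio differed, high-fat minus control, by −0.10 ± 0.23 (SE, interval −0.62 to 0.42, adjusted p = 0.888 by limma) for miR-148a-3p over miR-148b-3p. For miR-148a-3p over miR-152-3p the difference was 0.06 ± 0.24 (SE, interval −0.48 to 0.60, adjusted p = 0.934 by limma), and for miR-148b-3p over miR-152-3p it was 0.16 ± 0.21 (SE, interval −0.31 to 0.63, adjusted p = 0.753 by limma).

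The ratio of the 5p strands stood further apart between diets without passing the test. There were 24.4, 24.3, 36.8, 21.7 and 30.7 miR-148a-5p counts per miR-148b-5p count in control dams 1 to 5, and 21.2, 14.6, 12.0 and 11.2 in high-fat dams 1 to 4. All 4 high-fat dams were below all 5 control dams. Groups that do not overlap, in either direction, were found in 4.1% of the same-seed pairs. High-fat dam 1 was just under control dam 4, a gap smaller than the counting error of either ratio, whose log2 SDs were 0.20 and 0.22. The mean was 27.6 ± 6.11 (SD, n = 5) in control and 14.7 ± 4.55 (SD, n = 4) in high-fat milk. The log2 difference was −0.91 ± 0.23 (SE), with a 95% interval of −1.43 to −0.39 and an unadjusted p of 0.00334, but the adjusted p over the 122 pairs by limma was 0.204. Without high-fat dams 1 and 3 the difference was −1.07, with an adjusted p of 0.119 by limma. The ratio holds the counts that gave the opposite signs of the 2 passenger strands above and is not a separate measurement.

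**Figure D4:**
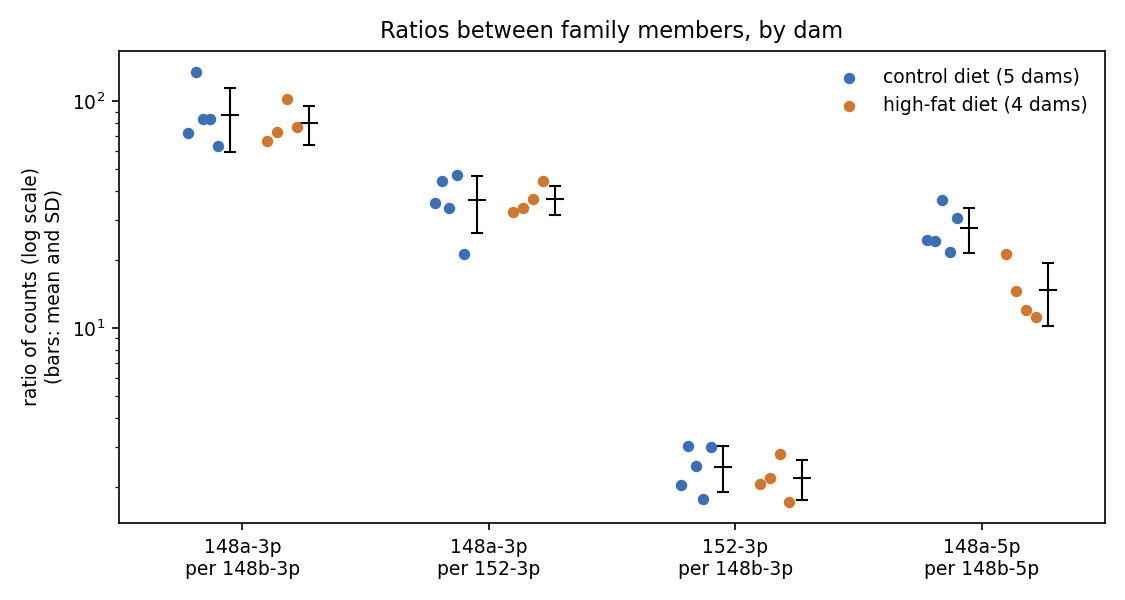
Counts of 1 member per count of another (log axis) for the 3 pairs of 3p strands and for the 5p strands. Each point is 1 dam, blue control and orange high-fat, and bars give the mean and SD. The 3p ratios overlap between diets, and the 5p ratio runs from 21.7 to 36.8 in control and from 11.2 to 21.2 in high-fat dams.

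The dams of a diet were also close to each other in the level of the more abundant members. The SD of log2 CPM between control dams was 0.23 for miR-148a-3p, 0.31 for miR-152-3p, 0.20 for miR-148b-3p, 0.12 for miR-148a-5p and 0.40 for miR-148b-5p, beside a median of 0.39 over the 312 tested names. Between high-fat dams it was 0.17, 0.12, 0.25, 0.22 and 0.52 in the same order, beside a median of 0.42. Spread declines with level in such counts, and beside the 50 most abundant names, whose median SDs were 0.26 and 0.25, the members were less set apart: 44% of these names had a smaller SD than miR-148a-3p in control and 22% in high-fat dams. For miR-152-3p it was 58% in control and 14% in high-fat dams, and for miR-148b-3p 32% and 54%. miR-148b-5p is counted too rarely for that comparison. Its SD was near the median of all tested names in control dams (0.40 against 0.39) and above it in high-fat dams (0.52 against 0.42).

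**Figure D5:**
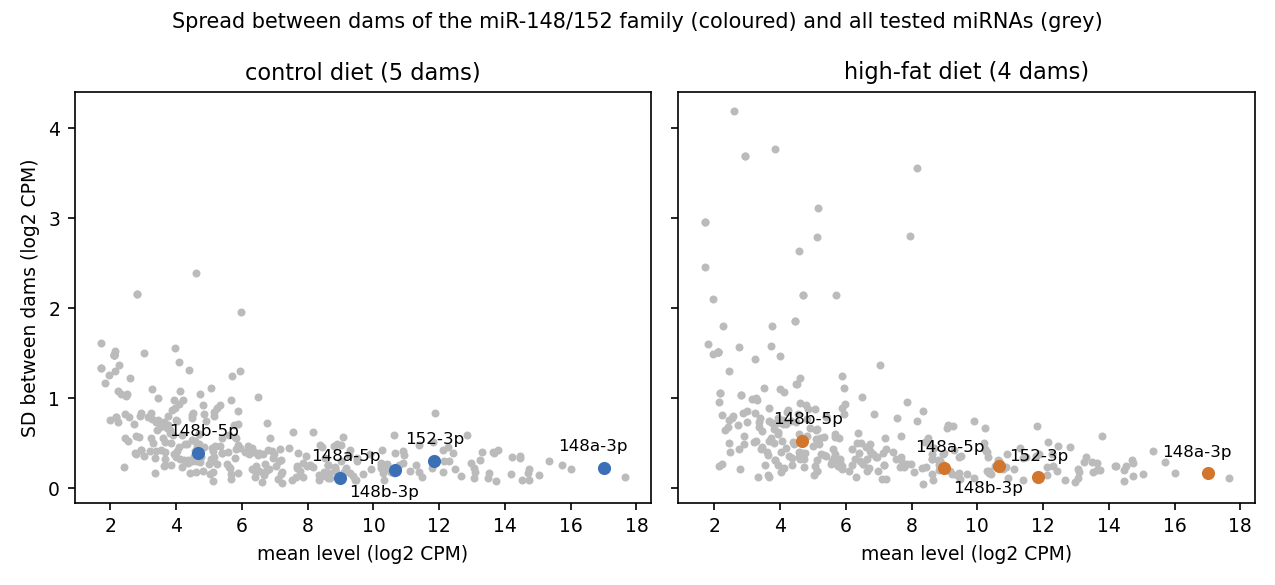
SD of log2 CPM between dams against mean log2 CPM over the 9 libraries, for control dams on the left and high-fat dams on the right. Grey points are the 312 tested miRNAs and coloured points the 5 members. SD is larger among rare miRNAs, and the 4 more abundant members lie at SDs of 0.12 to 0.31.

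The tested miRNAs whose log2 CPM went most closely with each member over the 9 libraries are given as a description. All points share library preparation and scaling, and each name was picked for its correlation from the tested names outside the 5 members. For miR-148a-3p these were miR-190a-3p (Pearson r = 0.95, n = 9), miR-28a-5p (0.86) and miR-497a-5p (0.84). For miR-152-3p the closest was miR-152-5p, the other strand of its own hairpin (r = 0.82, n = 9), followed by miR-3068-5p (0.79) and miR-24-1-5p (0.78). For miR-148b-3p they were let-7d-3p (r = 0.81, n = 9), miR-378a-5p (0.75) and miR-877-3p (0.74). For miR-148a-5p they were miR-22-5p (r = 0.86, n = 9), miR-5121 (0.84) and miR-5100 (0.82). All 3 had, like miR-148a-5p, a lower mean in high-fat milk, and after the diet means were removed r was 0.68, 0.65 and 0.60. For miR-148b-5p they were miR-335-5p (r = 0.86, n = 9), miR-181c-5p (0.86) and miR-141-3p (0.86). For the names given with the other 4 members, r after removing the diet means ran from 0.71 to 0.95. Some of the names were rare, so their correlations rest on few counts. Among these were miR-190a-3p, miR-335-5p and miR-5121, with mean log2 CPM of 2.14, 2.27 and 2.88. With the members left out of the search, the partner strands of mir-148a and mir-148b could not appear, while miR-152-5p, which is no member, could.

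Names outside the family gave a frame for these values. Of 18 other miRNAs abundant in milk-secreting epithelium, all were tested, 10 had a log2 fold change above 0 and 0 were called, with a median of 0.02. They summed to 64.6% ± 1.40 (SD, n = 5) of counts in control and 63.1% ± 0.786 (SD, n = 4) in high-fat milk. All 5 leukocyte miRNAs had a log2 fold change above 0, with a median of 0.97, and 0 were called by limma-voom. Their summed share was above every control dam in high-fat dams 1 (1.14%) and 3 (0.287%). It was below every control dam in high-fat dams 2 (0.00777%) and 4 (0.0251%). Over all 312 tested names, 158 had a log2 fold change above 0. The miR-130/301 names, which carry the seed letters 1 base earlier, were rare. miR-130a-3p and miR-130b-3p had 183 and 234 counts over all 9 libraries, against 2459005 for miR-148a-3p, and log2 fold changes of −0.14 ± 0.50 (SE) and −0.42 ± 0.35 (SE), with adjusted p of 0.892 and 0.683 in limma-voom. miR-301a-3p and miR-301b-3p, with 79 and 12 counts, did not pass the filter.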

How the data were processed

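Known-miRNA read counts per dam were used as the authors deposited them, whole numbers with comma separators in 833 cells. The submitters' processing notes name cutadapt 1.9.1 and the build GRCm38. The aligner, counting rule, miRBase release and handling of the kit's random bases were not given in the sources used here; counts are reads, not molecules, and levels of different miRNAs compare them as captured by the kit. Of several rows of a name the highest per library was kept (2059 rows, 1915 names). Names with 10 counts scaled to the median library (5.25 CPM) in at least 4 libraries and 15 in total were tested. Because of the separators the columns were recorded under another unit, so count models were not used: trimmed mean of M values factors (30% and 5% trimmed) and limma 3.58.1 in R 4.3.3 were used, with diet as the only term, two-sided, threshold 0.05. Ratios used a pseudocount of 0.5. Alternatives covered weights, scaling, filter, rows, pseudocount, replicate block and left-out libraries, and the scripts were tested on simulated data. Wilson intervals (95%) and floors (3 counts) cover counting error only. Sequences were matched for 1623 of 1915 names, 263 of the 312 tested. Named miRNAs were the members, miR-152-5p, same-seed and shifted-seed names, and fixed lists of epithelial and cell type miRNAs. Also named were, for each member, the 3 most correlated tested names outside the members. Members and lists were chosen with earlier results of these data known. Chi-square per degree of freedom was at least 55.4 between libraries of a diet, so no library repeated another.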

Additional observations from a re-analysis of the deposited data

Results flagged for a closer look

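In 2 of 28 sets of member values, each over the dams of a diet, 1 dam lay far from the rest by Dixon's test, and chance alone flags about 1 set in 20. miR-148b-3p took 0.134% of counts in high-fat dam 3, and 0.189% to 0.195% in the other high-fat dams. High-fat dam 3 also had raised leukocyte miRNA counts (0.287%), as did high-fat dam 1 (1.14%), whose miR-148b-3p share of 0.191% was not low, and the part of these counts in the value was not tested. There were 134.2 miR-148a-3p counts per miR-148b-3p count in control dam 2, and 63.4 to 83.3 in the other control dams. That dam had both the highest share of miR-148a-3p (15.8%) and the lowest of miR-148b-3p (0.118%) among the control dams.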

How the results depend on the processing

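No member was called in any of 17 alternatives, and no family arm ratio or same-seed ratio in any of 14. Over all tested names limma called 0, but 2 with limma-trend, 4 without the filter on low counts, 2 with a quality weight for each library and 3 with the replicate block, and 0 to 4 when each library was left out in turn, 4 being without control dam 5; no member was among them, and the cause was not tested. The log2 fold change of miR-148a-5p ran from −0.49 to −0.30 (adjusted p 0.301 to 0.698) over its alternatives, and the log2 ratio of the 5p strands from −1.10 to −0.79, with adjusted p from 0.0674 without high-fat dam 1 to 0.510 without control dam 5. Differences near 0 changed sign: miR-148a-3p over miR-152-3p was −0.12 with the replicate block and −0.12 to 0.17 with each library left out, mir-152 strand balance was −0.0482 with a pseudocount of 5 and −0.0610 to 0.25 with libraries left out, miR-148a-3p over miR-148b-3p ran from −0.23 to 0.0698, and the log2 fold change of miR-152-3p from −0.0603 to 0.15, with libraries left out. The family's share was higher in high-fat milk by 0.344 to 1.68 percentage points. Correlations of same-numbered control and high-fat libraries, each taken as deviations from its diet mean, were 0.06, −0.08, 0.20 and −0.16. These values showed no pairing of dams by number, but so few cannot exclude it. The replicate block sets aside control dam 5, which has no partner. Low counts of miR-148b-5p and miR-152-5p limit their ratios.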
